A study of Homo sapiens with 6 samples.

Results

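The T-box genes encode transcription factors that share 1 kind of DNA-binding domain. The 10 members described here were picked by symbol from the deposited table of 54259 gene symbols, and they are T (brachyury), TBX1, TBX2, TBX3, TBX4, TBX5, TBX6, TBX15, TBX19 and EOMES. The RNA came from MDA-MB-231, an established human breast cancer cell line, in 2 groups of 3 libraries. The shBry libraries came from cells with a short hairpin RNA against brachyury, and the shNC libraries from cells with a control hairpin. The sources used here give no hairpin sequence or clone number for MDA-MB-231 and do not say whether libraries came from separate cultures, so p-values measure the spread between these libraries, which may be technical. The study treats the shBry cells as a brachyury knockdown, and the comparison of shBry with shNC asks which genes differ between these 2 groups.

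T-box factors bind short DNA elements and act as activators or repressors, and much of what is known of them comes from embryos. Brachyury and EOMES act in mesoderm and endoderm, TBX6 in paraxial mesoderm and somites, TBX1 in the pharyngeal arches and outflow tract, TBX2, TBX3 and TBX5 in heart and limb, TBX4 in hindlimb and lung mesenchyme, TBX15 in skeleton and muscle, and TBX19 in the pituitary cells that make POMC. Brachyury, TBX2 and TBX3 are also studied in carcinomas, where they are linked to epithelial-mesenchymal transition and to escape from senescence.

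Of the 10 members, 6 had at least 1 count and 4, brachyury among them, had 0 counts in all 6 libraries. The libraries held between 19319411 and 22985371 counts, so a count of 0 allows between 0.131 and 0.155 CPM (a gene's share of its library's counts, on the scale of edgeR's cpm function). This limit is 3 counts of the library total and covers counting error only. All CPM below are scaled by edgeR's TMM factors. The labelled cell type was checked on markers. All 8 MDA-MB-231 markers had enough counts to be tested, while 5 of 10 luminal breast markers were. Among the luminal markers ESR1 and PGR had at most 1 count in a library, but in shNC KRT8 had 891.3 CPM, KRT18 508.1, GATA3 10.4 and FOXA1 5.75. The submitters' design text calls the RNA pericardial. Of 14 cardiac and mesothelial markers, MYH6, MYH7, NPPA and HAND2 were at 0 in all 6 libraries, and 4 were tested, namely the mesothelial markers MSLN (32.1 CPM in shNC) and CALB2 (4.62, with 222 of its counts in shNC replicate 3) and the cardiac markers NKX2-5 (16.3) and TNNI3 (0.604). Of 10 leukocyte markers, 6 were at 0 in all libraries, PTPRC among them.

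The sequences before the start sites of 3 members are shown because brachyury is the gene the hairpin is directed at, TBX1 had the highest level and TBX4 was the only member called. Each line gives the 250 bases upstream of a RefSeq start site (GRCh38.p14), 5′ to 3′ on the gene's strand, with CG dinucleotides in capitals. The windows are chr6:166168656-166168905 (minus strand) for T, chr22:19756453-19756702 (plus strand) for TBX1 and chr17:61456238-61456487 (plus strand) for TBX4.
T: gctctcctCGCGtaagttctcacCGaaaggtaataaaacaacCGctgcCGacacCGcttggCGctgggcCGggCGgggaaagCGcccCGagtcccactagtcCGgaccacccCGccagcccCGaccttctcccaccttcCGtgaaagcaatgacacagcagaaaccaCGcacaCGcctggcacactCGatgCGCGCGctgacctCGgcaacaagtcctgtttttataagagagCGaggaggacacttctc
TBX1: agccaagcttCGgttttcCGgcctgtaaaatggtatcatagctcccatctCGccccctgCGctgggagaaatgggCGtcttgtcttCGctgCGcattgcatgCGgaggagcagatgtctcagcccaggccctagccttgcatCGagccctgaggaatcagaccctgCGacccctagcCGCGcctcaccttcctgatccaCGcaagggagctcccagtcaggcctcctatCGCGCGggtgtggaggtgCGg
TBX4: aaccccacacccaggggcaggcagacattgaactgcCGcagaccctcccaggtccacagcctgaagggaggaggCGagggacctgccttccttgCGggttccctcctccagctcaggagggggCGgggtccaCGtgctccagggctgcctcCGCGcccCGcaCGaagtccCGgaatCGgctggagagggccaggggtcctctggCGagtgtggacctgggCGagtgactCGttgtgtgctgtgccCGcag
The T window held 23 CG dinucleotides, the TBX1 window 17 and the TBX4 window 15, against a median of 11 over 35116 windows. The RefSeq start site after the TBX4 window lies 4084 bases inside the gene as GENCODE 29 annotates it. The half-site that brachyury and its relatives bind, TCACACCT or its reverse complement AGGTGTGA, was found in none of the 9 windows of the 7 members with an entry, and in 0.786% of all windows. The windows of TBX2, TBX3 and TBX15 were not analysed here.

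All 6 libraries, shBry and shNC alike, had no count for brachyury. The gene lies on chromosome 6 of GRCh38 from 166157656 to 166168700, and the table lists it as T. A difference between the hairpins was therefore not detectable in these counts. The gene the hairpin is directed at gives no check of the labels. TBX2 (chromosome 17, 61399896 to 61409466) was at 0 in all 6 libraries as well, as were TBX5 (chromosome 12, 114353931 to 114408442) and its neighbour TBX3 (114670254 to 114684164). None of the stretches of 50 bases in the transcripts of T, TBX2, TBX3 or TBX5 occurs in transcripts of another gene. Of the exon bases of TBX5, 5.78% lie also in TBX5-AS1, and 0.464% of those of TBX2 lie in another gene, with none for T and TBX3.

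The zeros stood beside genes with counts. PDE10A, a phosphodiesterase gene and the protein-coding gene before T, had 27.6 ± 3.46 CPM in shBry (SD, n = 3) and 11.7 ± 0.341 in shNC. BCAS3, before TBX2, had 18.6 ± 0.809 and 23.4 ± 0.79 CPM. RBM19 and MED13L, on either side of TBX5 and TBX3, had 36.1 ± 2.24 and 98.9 ± 13.1 CPM in shBry. Over all members, 14 of 16 distinct neighbouring protein-coding genes had counts. The antisense transcripts TBX2-AS1 and TBX5-AS1 were at 0 in all libraries too, and those of T and TBX3 were not analysed here. Of all symbols in the table, 28741 (53%) had no count in any library. Whether the zeros reflect absent transcripts or the annotation used for counting, which is not given, was not tested.

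TBX1 was the member with most reads. It took 2961 of the 3753 counts of the 10 members (78.9%), and between 75.8% and 80.6% of them in each library. In shNC replicates 1, 2 and 3 it had 23.6, 22.9 and 20.2 CPM. In shBry replicates 1, 2 and 3 it had 25.0, 24.2 and 23.1 CPM. The values of shBry replicate 3 and shNC replicate 1 crossed, so the groups overlapped. TBX1 lies on chromosome 22 from 19756703 to 19783593 in the region deleted in DiGeorge syndrome, and exons of GNB1L overlap 7.82% of its exon bases. Whether reads were counted by strand is not given in the sources used here, so how reads in this overlap were counted is not known.

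**Figure D1:**
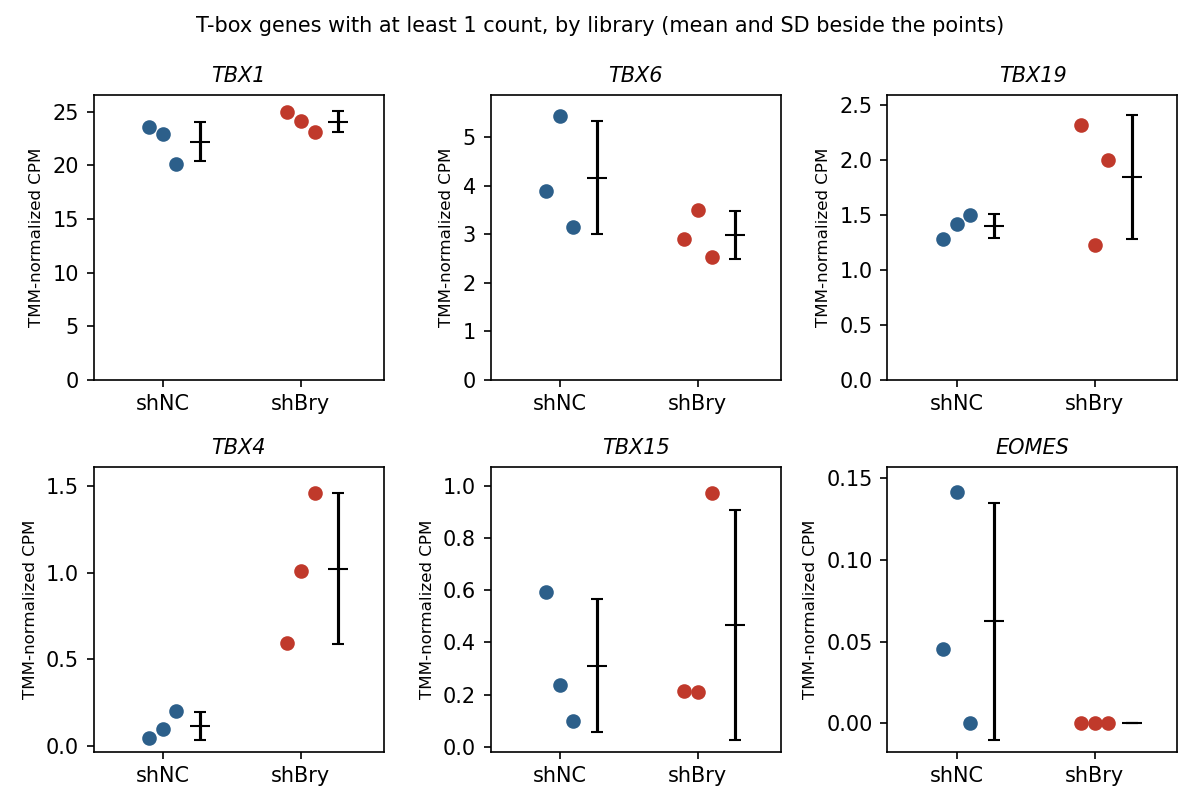
TMM-normalized CPM (y axis, a scale of its own for each gene) of the 6 T-box genes with at least 1 count, in 3 shNC and 3 shBry libraries (points), with the mean and SD beside them. Only TBX4 separates the groups, with all shBry libraries at or above 0.592 CPM and all shNC libraries at or below 0.2 CPM. Of all tested genes, 59.5% separate the groups.

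TBX6 lies on chromosome 16 from 30085793 to 30091887 and TBX19 on chromosome 1 from 168281040 to 168314426. TBX6 had 3.89, 5.44 and 3.16 CPM in shNC replicates 1, 2 and 3. In shBry replicates 1, 2 and 3 it had 2.91, 3.50 and 2.53 CPM. The highest shBry library lay above the lowest shNC library, and shNC replicate 2 was the highest of all 6. TBX19 had 1.28, 1.42 and 1.50 CPM in shNC replicates 1, 2 and 3. In shBry replicates 1, 2 and 3 it had 2.32, 1.22 and 1.995 CPM. For TBX19 the shBry libraries held both the highest values and the lowest, so the groups overlapped.

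TBX15 (chromosome 1, 118883046 to 118989556) was read from few counts, with 13, 5 and 2 in shNC replicates 1, 2 and 3 and 4, 5 and 22 in shBry replicates 1, 2 and 3. A single library stood high in each group. The difference of mean CPM had a two-sided exact permutation p of 0.7, where 3 against 3 libraries cannot go below 0.1. EOMES (chromosome 3, 27715949 to 27722711) had 1, 3 and 0 counts in shNC replicates 1, 2 and 3 and 0 in all shBry libraries. Every library lies at or under the limit of 3 counts, so no fold is given. TBX15 and EOMES did not pass the filter on low counts and were not tested.

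Levels of different genes were compared per kilobase of annotated exon (RPKM, from the TMM-normalized CPM). In shNC the order was TBX1 with 6.21 ± 0.5 RPKM (SD, n = 3), TBX6 with 1.33 ± 0.371, TBX19 with 0.384 ± 0.0304, TBX15 with 0.0715 ± 0.0589, TBX4 with 0.0284 ± 0.0198 and EOMES with 0.0171 ± 0.0198. The first 3 levels did not overlap between neighbours in this order, while TBX15, TBX4 and EOMES did. TBX1 lay above 58.7% of the tested genes in shNC, TBX6 above 26.3% and TBX19 above 10.4%. In shBry TBX4 stood before TBX15, with 0.256 ± 0.109 against 0.107 ± 0.101 RPKM, and its libraries overlapped those of both TBX15 and TBX19.

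**Figure D2:**
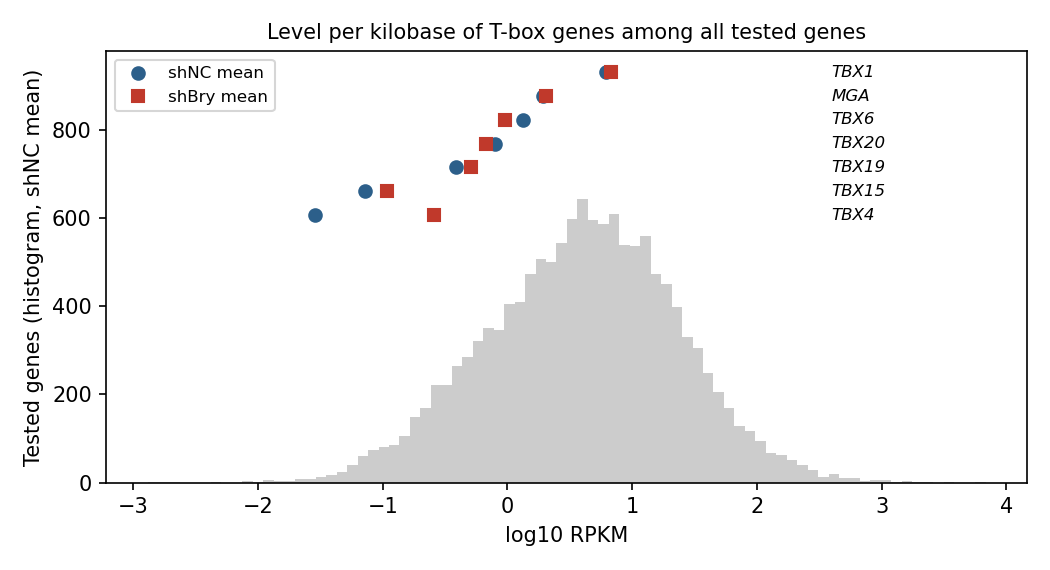
Histogram of the mean level in shNC over 13619 tested genes with an annotated exon length (x axis, log10 RPKM, y axis, number of genes), with the shNC mean (circles) and shBry mean (squares) of 7 T-box genes above it. TBX1 lies in the middle of the distribution, and TBX4 moves from 0.0284 to 0.256 RPKM within its low end.

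Of the 10 members, 4 had enough counts to be tested, and 1 of them (25%), TBX4, was called. A gene was called where edgeR's quasi-likelihood test gave a p under 0.05, adjusted by the Benjamini-Hochberg method over all tested genes, together with more than a 1.5-fold difference. This p is the edgeR-adjusted p below, and a log2 difference is the fitted log2 fold change of shBry relative to shNC. Of all 15277 genes tested, 32.4% were called, with 17.1% higher and 15.2% lower in shBry. The median log2 difference over all tested genes was 0.03.

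TBX4, on chromosome 17 from 61452404 to 61485110, rose in shBry. It had 1, 2 and 4 counts in shNC replicates 1, 2 and 3, or 0.0458, 0.0946 and 0.2 CPM. In shBry replicates 1, 2 and 3 it had 11, 24 and 33 counts, or 0.592, 1.01 and 1.46 CPM. The lowest shBry library lay above the highest shNC library. Groups without overlap were found for 59.5% of all tested genes.

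The log2 difference of TBX4 was 3.15 (standard error 0.57, 95% interval 1.92 to 4.38, edgeR-adjusted p = 0.000362). The summed counts, 68 against 7, gave a ratio of 9.43 after scaling, with an exact Poisson interval of 4.34 to 24.3 that covers counting error only. In shNC, replicates 1 and 2 lay under the limit of 3 counts and replicate 3 just above it, so the size of the fold rests on few counts. A larger log2 difference was found for 96 genes (0.628% of those tested). With 1 library left out in turn the log2 difference of TBX4 lay between 2.77 and 3.76, and the edgeR-adjusted p between 8.57e-05 and 0.00309. TBX4 entered the test only through its shBry libraries. Of 198 genes with all shNC libraries under the count limit and all shBry libraries at or over it, 90.9% were called, and a gene of this kind had to differ to be in the test at all. With a filter of at least 10 counts in every library TBX4 was not tested.

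The genes around TBX4 did not share its values. TBX2, the gene before it, and NACA2, the gene after it, were at 0 in all libraries. BCAS3, on the far side of TBX2, had a log2 difference of -0.33 (edgeR-adjusted p = 0.0214), under the fold change limit. No exon base of TBX4 is overlapped by another annotated gene, and none of its stretches of 50 bases occurs in transcripts of other genes. TBX4 is a known gene of lung fibroblasts. In a list of 10 fibroblast markers 2 were tested and none called by edgeR, COL1A1 with a log2 difference of 0.00 and PDGFRB with 0.07. COL3A1, which was not tested, had 0, 2 and 3 counts in shBry replicates 1, 2 and 3 and 16, 6 and 6 in shNC, without overlap. DCN was at 0 in all libraries, and the summed level of the list, nearly all of it COL1A1 and PDGFRB, lay between 31.9 and 35.5 CPM in shBry and between 30.2 and 35.9 CPM in shNC. Other marker lists did move with the groups. The summed level of 10 leukocyte markers lay between 1.39 and 1.77 CPM in shBry and between 0.426 and 0.962 in shNC. Most of it was CD3D, while PTPRC, TYROBP and MS4A1 were at 0. The sum of 10 luminal markers lay between 567.4 and 705.3 CPM in shBry and between 1345 and 1461 in shNC, carried by KRT8 and KRT18, with ESR1 and PGR at or next to 0. Of that list KRT8 was called lower and EPCAM higher (log2 difference 1.47, edgeR-adjusted p = 0.000337), and GATA3 was not called but had 13.0 CPM in shBry against 10.4 in shNC without overlap. The sum of 14 cardiac and mesothelial markers lay between 58.0 and 67.8 CPM in shBry and between 53.3 and 54.9 in shNC. MSLN, which was not called, carried this difference with 45.9 against 32.1 CPM, and the only gene of the list that was called, CALB2, had a log2 difference of -2.52, with 30, 29 and 222 counts in shNC replicates 1, 2 and 3. The part of these markers in the TBX4 result was not tested. In bulk RNA, more cells with a transcript and more transcript per cell cannot be told apart.

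TBX1, TBX6 and TBX19 were not called. TBX1 had a log2 difference of 0.12 (95% interval -0.13 to 0.36, edgeR-adjusted p = 0.405), so the interval of its fold ran from 0.917 to 1.28. TBX6 had a log2 difference of -0.48 (95% interval -0.99 to 0.02, edgeR-adjusted p = 0.0993). TBX19 had a log2 difference of 0.38 (95% interval -0.25 to 1.02, edgeR-adjusted p = 0.29). The interval of TBX1 lies inside the fold change limit in both directions, whereas those of TBX6 and TBX19 reach past it.

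TBX6 depended on single libraries. Without shBry replicate 2 its log2 difference was -0.64 (edgeR-adjusted p = 0.0408), and without shNC replicate 3 it was -0.67 (edgeR-adjusted p = 0.0372). Both would be called lower. Without shNC replicate 2, the highest library, it was -0.26 (edgeR-adjusted p = 0.433). The genes beside TBX6 on chromosome 16 were lower in shBry, with log2 differences of -0.61 for PPP4C, a protein phosphatase gene, and -0.66 for YPEL3 (edgeR-adjusted p = 6.77e-05 and 0.00155).

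Of the 16 genes that neighbour the members, 13 were tested, 3 were called higher and 4 lower in shBry, where 17.1% of all tested genes were higher and 15.2% lower. Those higher were PDE10A before T, MED13L after TBX3 and SLC4A7, a bicarbonate transporter gene before EOMES, with log2 differences of 1.24, 0.62 and 1.34. Those lower were PPP4C and YPEL3 beside TBX6, RBM19 before TBX5 and GP1BB, a platelet glycoprotein gene before TBX1, with -0.68 for RBM19 and -1.37 for GP1BB. GNB1L, which overlaps TBX1, had a log2 difference of -0.54 (edgeR-adjusted p = 0.00294), under the fold change limit. The genes beside TBX15 and TBX19 were not called, with log2 differences of -0.46 for SPAG17, 0.24 for WARS2 and 0.13 for SFT2D2, while XCL2 was at 0.

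**Figure D3:**
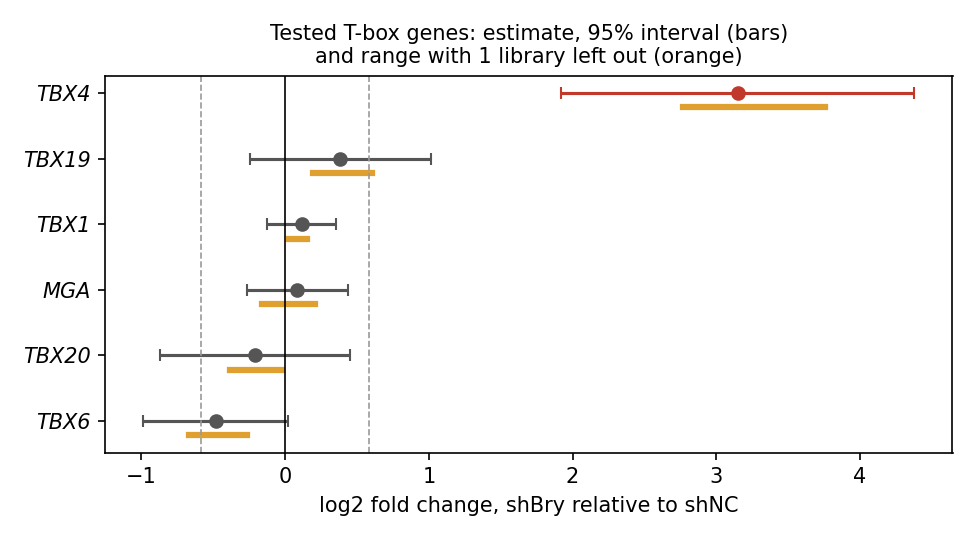
Log2 fold change of shBry relative to shNC (x axis) for 6 tested T-box genes, with 95% intervals (capped bars), the range over fits with 1 library left out (orange) and the fold change limit of 1.5 (dashed lines). TBX4 at 3.15 lies beyond the limit with its whole interval, and the other 5 intervals include 0.

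The family has 7 further human genes outside the 10 members. TBX10, TBX18, TBX21 and TBX22 were at 0 in all 6 libraries, and TBR1 had at most 2 counts in a library. MGA, which joins a T-box to a second DNA-binding domain that pairs with MAX, had 36.0 ± 9.3 CPM in shBry (SD, n = 3) and 34.0 ± 6.01 in shNC. It was not called, with a log2 difference of 0.09 (edgeR-adjusted p = 0.683). The sign turned without shBry replicate 2, to -0.16, and without shNC replicate 2, to -0.03. TBX20, a cardiac factor gene, had 1.27 ± 0.279 and 1.49 ± 0.389 CPM and a log2 difference of -0.21 (edgeR-adjusted p = 0.592), and 16.9% of its stretches of 50 bases also occur in transcripts of other genes. Per kilobase, MGA with 1.93 ± 0.341 RPKM in shNC stood between TBX1 and TBX6, and its libraries overlapped those of TBX6.

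Genes that work with T-box factors were examined as lists. Of 27 partner protein genes 25 were tested, and 8 (32%) were called, 5 higher and 3 lower in shBry, which is close to the 32.4% of all genes. EGR1, an immediate-early factor that binds TBX2, rose from 7.05 ± 0.454 to 79.6 ± 5.33 CPM (SD, n = 3) (log2 difference 3.50, edgeR-adjusted p = 1.4e-11). KDM6B, a histone H3 lysine demethylase recruited by T-box factors, rose from 43.0 ± 2.19 to 149.6 ± 7.01 CPM (log2 difference 1.80, edgeR-adjusted p = 7.64e-10). GATA6, SALL4 and KDM6A rose too, with log2 differences of 1.18, 0.94 and 0.70. Of the listed corepressor genes, HDAC1 and TLE2 fell, with log2 differences of -0.77 and -1.10 (edgeR-adjusted p = 2.32e-06 and 3.28e-06). TLE3 had a log2 difference of 0.54 (edgeR-adjusted p = 8.32e-05), under the fold change limit. TLE1, AES and HDAC2 had 0.12, 0.06 and 0.17 and were not called, and TLE4 was not tested. SMARCA4, a chromatin remodeler gene, fell by 0.60 on the log2 scale. NKX2-5, a cardiac partner of TBX5 and TBX20, had between 287 and 363 counts per library and was not called.

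The MGA complex is a Polycomb repressor complex in which MGA and MAX bind DNA. Of 18 genes 16 were tested, and 4 (25%) were called, 3 lower and 1 higher, against 32.4% of all tested genes. TFDP1 and TFDP2, the dimer partners of E2F factors, had log2 differences of -0.83 and -0.68 (edgeR-adjusted p = 2.73e-06 and 1.79e-05), and YAF2 had 0.73 (edgeR-adjusted p = 0.000475). HDAC1, which is in both lists, was the other gene called lower. RING1 and EHMT2 had at most 3 counts in a library and were not tested. With a fold change limit of 2 none of the 16 was called by edgeR, while 6 had an adjusted p below 0.05 without a limit.

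Of 34 genes known as T-box targets, 10 were at 0 in all libraries and 15 were tested. Of these, 7 (46.7%) were called, 5 higher and 2 lower, where 32.4% of all tested genes were called. The number was 4 without shNC replicate 1 or without shNC replicate 3. CDKN1A, the p21 gene that TBX2 and TBX3 repress in other cells, rose from 62.6 ± 5.07 to 273.8 ± 16.4 CPM (log2 difference 2.13, edgeR-adjusted p = 2.45e-10). SNAI1, an epithelial-mesenchymal transition factor gene, rose from 16.7 ± 0.767 to 27.6 ± 0.697 CPM (log2 difference 0.73, edgeR-adjusted p = 7.25e-05). MESP1, HAS2 and SLC16A6 had log2 differences of 0.64, 1.16 and 1.15. CCNB1, the cyclin B1 gene, fell by 0.64 on the log2 scale (edgeR-adjusted p = 4.08e-05), and by 0.57 without shBry replicate 2, under the limit. The median log2 difference of the list was -0.04. The targets of embryonic T-box factors such as NPPA, FGF10, MSGN1 and POMC were at 0 in all libraries.

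A list of 40 genes held members of the BMP, FGF, WNT and retinoid pathways, which switch on T-box genes in embryos. It also held genes of the NODAL and activin pathway, and inhibitors such as NOG. Of the 40 genes, 33 were tested. Of these, 11 (33.3%) were called, 3 higher and 8 lower, close to the 32.4% of all tested genes. The listed BMP ligand genes BMP4 and BMP2 changed in opposite directions. BMP4 fell from 17.2 ± 1.54 to 5.72 ± 0.954 CPM (log2 difference -1.59, edgeR-adjusted p = 1.14e-06). BMP2 rose from 3.63 ± 0.293 to 9.59 ± 0.354 CPM (log2 difference 1.40, edgeR-adjusted p = 5.12e-06). Among the inhibitory SMAD genes, SMAD6 had a log2 difference of -1.61 (edgeR-adjusted p = 7.36e-06) and SMAD7 one of 0.61. The WNT pathway genes TCF7L1 and AXIN2 had -0.95 and -1.23, the receptor genes FGFR2 and FGFR3 had -0.72 and -0.82, and RARB, a retinoic acid receptor gene, had -0.92. BMPR1B at 1.73 and SMAD9 at -0.79 were the other genes called. The median log2 difference of the list was -0.12.

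**Figure D4:**
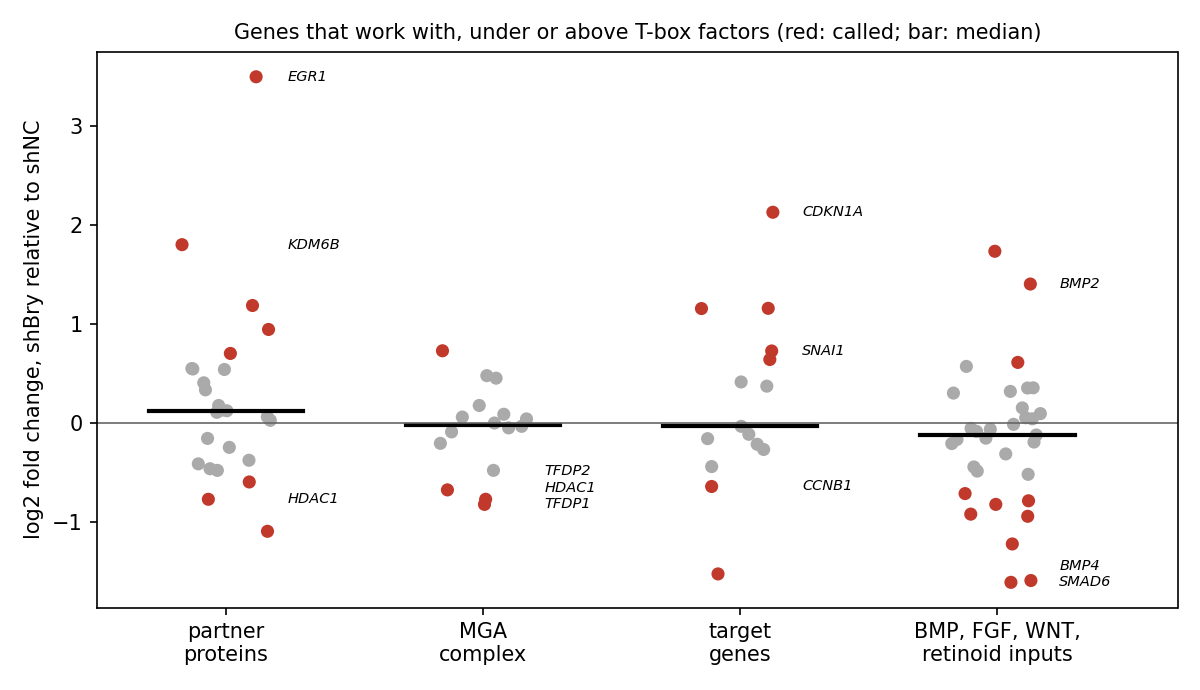
Log2 fold change of shBry relative to shNC (y axis) for the tested genes of 4 lists (points, red where called), with the median of each list (bar) and the 3 genes of each list with the smallest edgeR-adjusted p labelled at or just above their height. The lists spread in both directions around medians between -0.12 and 0.12, with EGR1 at 3.50 the highest point.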

How the data were processed

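RNA of MDA-MB-231 shBry cells and shNC cells was sequenced, with 3 libraries in each group, grouped by their labels. The file the authors deposited holds unnormalized counts of reads for each gene symbol and library. The submitters' processing notes name HISAT2 2.0.4, HTSeq and GRCh38, with no annotation or strand setting. Counts per library lay between 19319411 and 22985371. Low genes were removed by filterByExpr at a minimum count of 10, libraries were scaled by TMM and genes were tested with the quasi-likelihood test of edgeR 4.0.16 (R 4.3.3), adjusted over all tested genes by the Benjamini-Hochberg method. The study gives a threshold of p and a fold change of 1.5 but no test. Here the p was the adjusted one, at 0.05. Standard errors were the log2 fold change divided by the square root of F. The fit was tested on simulated data. DESeq2 1.42.0 and limma-voom (limma 3.58.1) were alternatives, beside library sizes without TMM, other filters and limits, a replicate block and each library left out. RPKM used the merged exons of GENCODE 29 by symbol (89.1% of tested genes matched, T as TBXT). Neighbours are the adjacent protein-coding genes by start position. Upstream sequences are from RefSeq (GRCh38.p14), and 7 of 10 members matched.

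The members and lists were chosen with earlier results of these data known, and the lists come from textbook knowledge. Named genes were all T-box genes, neighbours, in each list the called genes ranked by adjusted p, at most 4, or where none was called at most 2 with the highest mean CPM, and the 3 genes nearest in pattern to each tested member of at least 1 CPM. Further genes of the lists were named after their values were seen. Of the listed genes, some are counted but not reported here by name.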

Additional observations from a re-analysis of the deposited data

How the results depend on the processing

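With a fold change limit of 2 in place of 1.5, 2297 of all tested genes and 13 of the 86 tested genes of the 4 regulatory lists were called, against 4945 and 29. Without a limit the numbers were 8139 and 45. TBX4 stayed the called member under both limits, without TMM, without a filter, with unadjusted p and with DESeq2 and limma-voom. These settings use the same counts, and with the main filter TBX4 entered the test only through its shBry libraries. With at least 10 counts in every library it was not tested, and 0 of 3 tested members were called. With each library left out in turn, 1 to 2 members were called, TBX6 being the second, between 4587 and 5025 of all genes and between 26 and 30 listed genes. The log2 fold change of MGA then lay between -0.16 and 0.21. Scaling moved the median of all genes by less than 0.1 on the log2 scale. With the replicate number as a block, 4914 of all genes, 29 listed genes and 1 member, TBX4, were called. Deviations of same-numbered libraries correlated with r of 0.246, -0.129 and -0.0539, and not every library correlated best with its own number. With 3 libraries per group these values cannot show whether same-numbered libraries were paired. At this depth a count of 0 allows a level of up to 0.131 to 0.155 CPM, and the tested genes under 1 CPM had a median standard error of 0.44 (log2), against 0.14 over all tested genes.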

Other observations

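The genes nearest in pattern to the tested members with a mean of at least 1 CPM were found by the root-mean-square difference of log2 CPM (pseudocount 0.5) over the 6 libraries, each gene centred on its own mean. For TBX1 they were POFUT2 (0.0213), BCKDHA (0.0257) and SLC5A6 (0.0269). For TBX6 they were KCNIP2 (0.0696), LOC101927372 (0.098) and FBXL8 (0.109). For TBX19 they were MAP3K7CL (0.0694), PTRH2 (0.07) and RPL36AP37 (0.0732). These are descriptions of 6 libraries that fall into 2 groups.

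The half-site TCACACCT or AGGTGTGA was found in the 250 bases upstream of 15 of 1813 genes called higher in shBry (0.827%), of 11 of 1727 genes called lower (0.637%) and of 67 of 7576 genes that were not called (0.884%), counting tested genes with a RefSeq window and a match in any window of the gene.

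Among the 8 MDA-MB-231 markers, CAV1 and S100A4 were called lower in shBry, with log2 fold changes of -1.11 and -0.90. The other 6 were not called and differed in direction. CD44 had 0.34, AXL 0.33, LGALS1 0.24 and EGFR 0.06, while VIM had -0.27 and TM4SF1 -0.53. The leukocyte marker CD3D was called higher, with a log2 fold change of 1.33. The mesothelial marker CALB2 had 222 counts in shNC replicate 3 and between 14 and 30 in the other libraries. The epithelial marker KRT8 fell from 891.3 ± 46.7 CPM to 238.8 ± 24.3 in shBry (SD, n = 3), and EPCAM rose from 1.55 ± 0.513 to 4.28 ± 0.681, with log2 fold changes of -1.90 and 1.47 (adjusted p = 8.96e-10 and 0.000337, edgeR's quasi-likelihood test).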
